A study of Gallus gallus with 34 samples.

Results

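Gene expression in the back of the eye was compared between chicks under a negative lens and chicks under a positive lens after 3 days of wear. The comparison held 8 of the 34 chicks of the series, chosen by the lens and the time given in their labels. Chicks 59, 60, 68 and 69 wore the negative 10 diopter lens, and chicks 26, 32, 33 and 36 wore the positive 10 diopter lens. All were 8 days post-hatch at collection. The 4 age-matched No Lens chicks served as a reference for where each lens group lay. The counts of 1 of them, chick 100, carried a label suffix that no other chick has and were matched to it by number. Every chick gave 1 sample of retina, retinal pigment epithelium and choroid together, and the messenger RNA of each sample was counted per gene. The chicks were male Leghorn/New Hampshire birds that carried no genetic modification, the lens sat over the right eye, and the birds taken for sequencing were chosen by the study for strong and cohesive changes in refraction and eye length. The groups are therefore not a random sample of lens-wearing chicks, and the p-values measure the spread between these chicks only.

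A negative lens moves the plane of focus behind the retina and a positive lens moves it in front. The growing chick eye responds to both: it elongates faster behind a negative lens, with a thinner choroid, and it slows its elongation behind a positive lens, with a thicker choroid. The signal arises in the retina and passes through the pigment epithelium to the choroid and sclera, where matrix is remodelled. BMP2 in the pigment epithelium and glucagon in amacrine cells are among the best known genes that respond to the sign of the lens in birds.

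Total counts ranged from 2696567 to 9230350 in the negative lens chicks and from 1592763 to 7978470 in the positive lens chicks. The lowest total was that of positive chick 32, in which mitochondrial genes took 8.54% of the counts, against 4.23 to 6.22% in the other 11 chicks of day 3. Levels are given as CPM, the read count of a gene scaled by the chick's total count after normalisation by the TMM method. In chick 32 a single read is worth 0.664 CPM, so its values of low genes are coarse. CPM values are given for single chicks in the order of the chick numbers above. Markers of rods, cones, bipolar, amacrine, horizontal and ganglion cells, Mueller glia, pigment epithelium, melanocytes, endothelium and smooth muscle were all present, as the labelled tissues imply. In bulk tissue, a change in the number of cells of a type and a change in the RNA of each cell cannot be told apart.

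At day 3, 4 genes differed between the lenses, and all 4 were lower with the negative lens: NPR3, C7, PTX3 and VCAN. They encode a receptor that clears natriuretic peptides, a component of the terminal complement complex, a secreted pentraxin and the proteoglycan versican. In the fitted model NPR3 was 4.15-fold and PTX3 15.6-fold higher with the positive lens. The 4 genes were 0.0348% of the 11501 genes tested with edgeR's quasi-likelihood test at an adjusted p-value below 0.05. No gene was higher with the negative lens at that threshold. At an unadjusted p-value below 0.05, 293 genes were higher and 464 were lower, or 6.58% of the genes tested. The median log2 fold change over all genes was -0.01. The number called depends on the test. DESeq2 called 60 genes (13 higher and 47 lower), the likelihood ratio test of edgeR called 64 (8 higher and 56 lower), and limma-voom with quality weights called 3. The 4 genes were among those called by DESeq2 and by the likelihood ratio test, and 2 of them were among the 3 called by limma-voom. The count of 4 became 84 without positive chick 33, and it became 1 without negative chick 60 and 2 without negative chick 68.

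**Figure D1:**
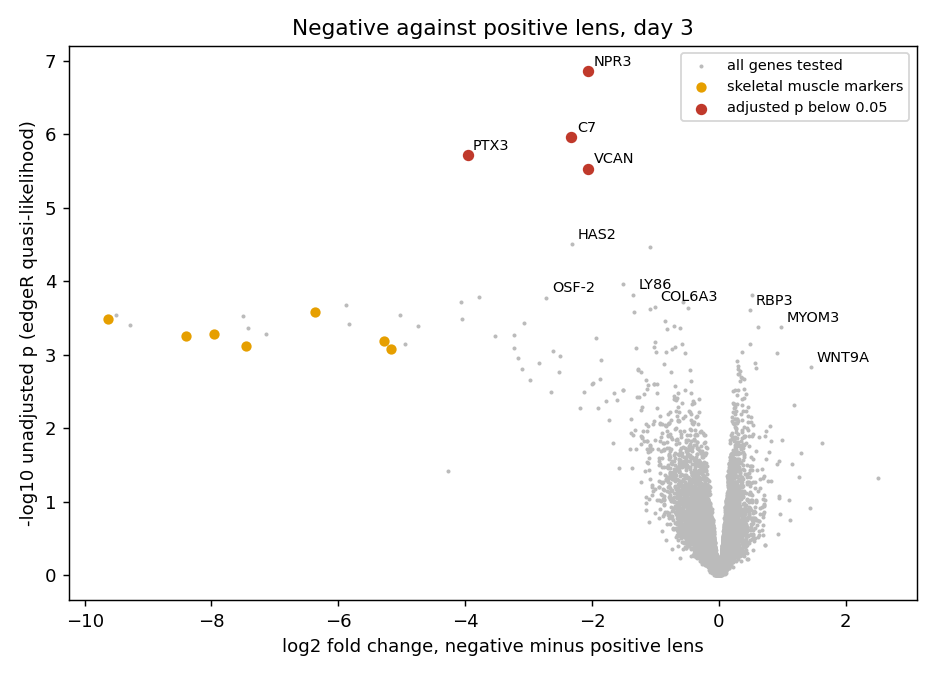
Each point is 1 of the 11501 genes tested, with the log2 fold change (negative minus positive lens) on the horizontal axis and -log10 of the unadjusted p-value on the vertical axis. The 4 genes past the threshold lie on the left, between -3.96 and -2.05, and the 7 skeletal muscle markers lie farther left at smaller values of -log10 p.

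NPR3, the natriuretic peptide clearance receptor, had the smallest p-value. Its level was 9.62, 9.53, 5.21 and 7.93 CPM in the negative lens chicks and 50.6, 25.9, 23.9 and 34.9 CPM in the positive lens chicks. The No Lens chicks lay between the lens groups, at 21.0, 20.3, 20.4 and 21.2 CPM. No value of any group reached into another, and NPR3 was the only 1 of the 11501 genes (0.00869%) whose 12 chicks were ordered in this way from negative through No Lens to positive. No gene had the opposite order. The log2 fold change was -2.05 ± 0.22 (SE), with an adjusted p-value of 0.00159 by edgeR's quasi-likelihood test. The exact permutation test over the chicks gave p = 0.0286, the smallest that 4 against 4 chicks can give. That value follows from the lack of overlap alone. It is shared by all 441 genes (3.83%) without overlap between the lenses, so it adds nothing to that separation. Leaving out each of the 8 lens chicks in turn left NPR3 past the threshold every time, with log2 fold changes from -2.19 to -1.79. Of the other genes of the natriuretic peptide system, 2 were tested and neither was called: the log2 fold change was 0.60 for CNP3, a C-type natriuretic peptide, and -0.11 for NPR2, the receptor guanylate cyclase that this peptide activates.

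C7, a component of the membrane attack complex of complement, was at 15.5, 18.5, 23.1 and 15.9 CPM with the negative lens and at 117, 40.5, 62.4 and 125 CPM with the positive lens. The groups did not overlap, and positive chicks 26 and 36 were far above the other two. The No Lens chicks were at 32, 26.8, 36.9 and 52.2 CPM. The log2 fold change was -2.32 ± 0.30 (SE), with an adjusted p-value of 0.00627 by edgeR. The call was lost without negative chick 60 (adjusted p-value of 0.0570). Of 13 complement and coagulation genes tested, C7 was the only one called. C1S, a protease of the classical pathway, had a log2 fold change of 0.68 in the opposite direction (unadjusted p-value of 0.0361). MASP1, a protease of the lectin pathway that is not among those 13, had a log2 fold change of -1.52 (unadjusted p-value of 0.00011, adjusted p-value of 0.142 by edgeR).

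The other 2 called genes belong to the matrix built on hyaluronan. PTX3, a pentraxin that in mammals stabilises hyaluronan-rich matrix, was at 2.11, 1.59, 0.744 and 1.18 CPM with the negative lens. With the positive lens it was at 39.2, 6.64, 12.6 and 27.0 CPM. The groups did not overlap, although the values rest on as few as 2 reads in negative chick 68 and 10 reads in positive chick 32. The log2 fold change was -3.96 ± 0.53 (SE), with an adjusted p-value of 0.00738 by edgeR. PTX3 was at 2.94, 6.33, 5.24 and 11.2 CPM in the No Lens chicks. VCAN, the large proteoglycan versican that binds hyaluronan, was at 8.44, 6.48, 5.95 and 9.22 CPM with the negative lens and at 48.5, 19.9, 16.8 and 38.6 CPM with the positive lens. The 4 No Lens chicks, at 9.20, 9.97, 9.67 and 11.2 CPM, lay close to the negative lens chicks. The log2 fold change of VCAN was -2.06 ± 0.29 (SE), with an adjusted p-value of 0.00853 by edgeR. PTX3 lost its call without any 1 of negative chicks 60, 68 and 69 (adjusted p-values from 0.0524 to 0.0727), and VCAN lost it without negative chick 60 (0.0851) or 68 (0.0524). With only the 2 lens groups in the fit, VCAN had an adjusted p-value of 0.0630.

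HAS2, the enzyme that makes hyaluronan, came next and did not pass the threshold. Its level was 4.69, 4.28, 2.98 and 4.07 CPM with the negative lens and 35.4, 9.96, 11.8 and 21.0 CPM with the positive lens, with no overlap. The log2 fold change was -2.31 ± 0.40 (SE), with an adjusted p-value of 0.0665 by edgeR and of 2.74e-05 by DESeq2. ADAMTS1, a protease that cleaves versican, was at 53.9, 56.0, 52.1 and 44.9 CPM against 95.1, 74.4, 63.5 and 98.6 CPM. Its log2 fold change was -0.70 ± 0.16 (SE), with an adjusted p-value of 0.142 by edgeR and of 0.0161 by DESeq2. In HAS2, ADAMTS1 and each of the 4 called genes, the 2 highest positive lens chicks were 26 and 36.

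**Figure D2:**
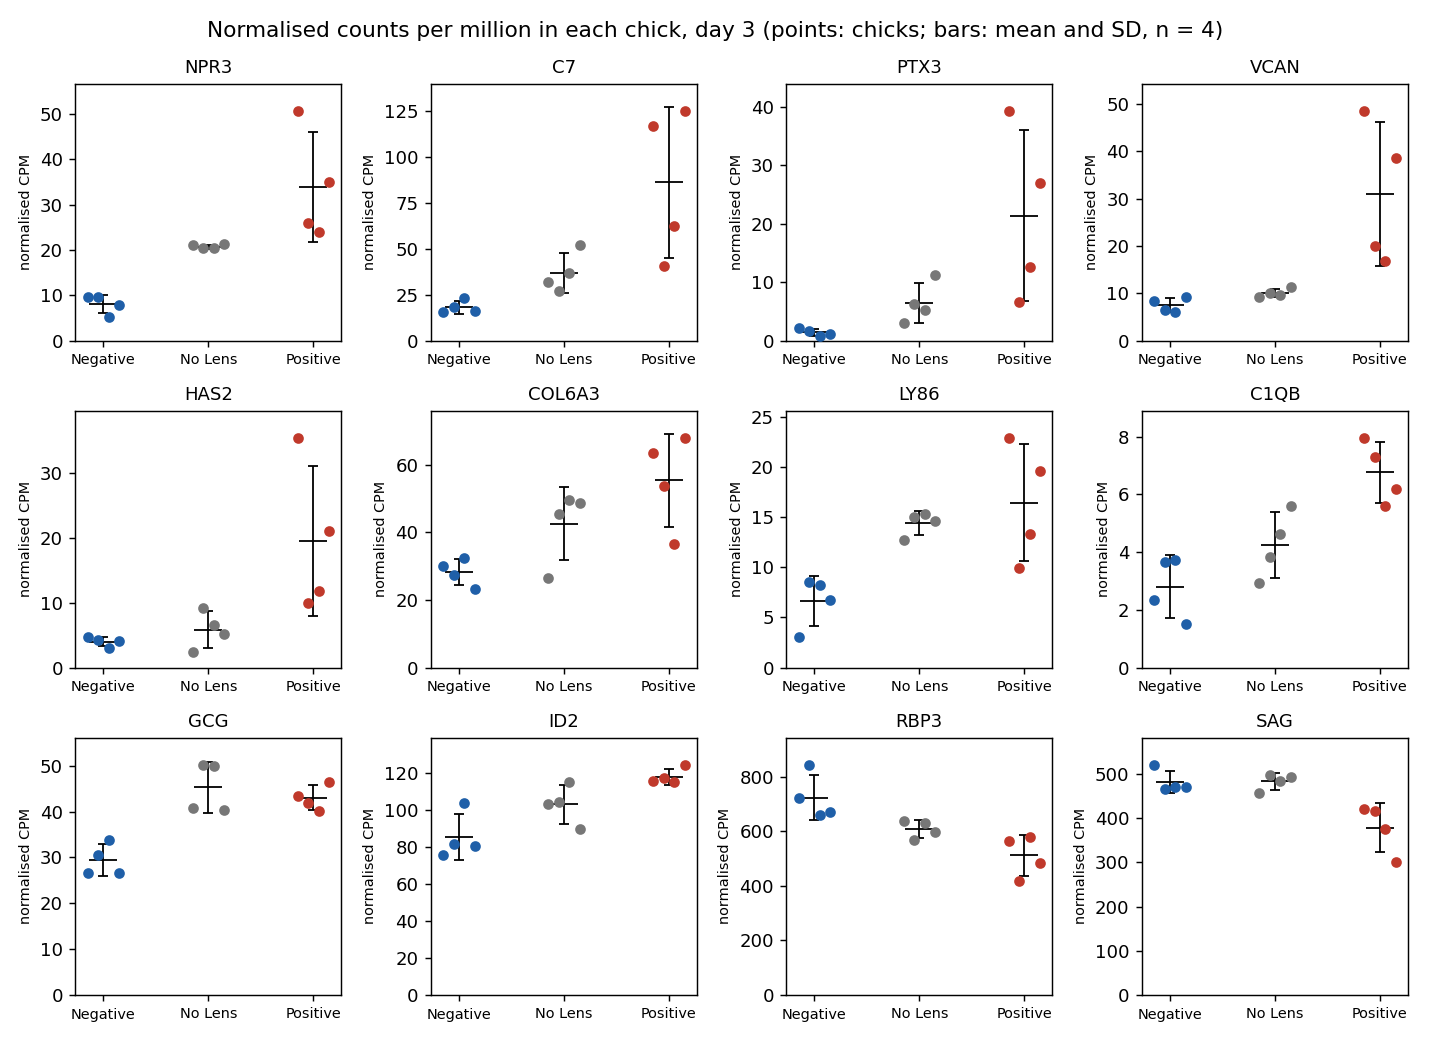
Normalised CPM (vertical axis, from 0) of 12 genes in the negative lens, No Lens and positive lens chicks of day 3, with 1 point for each chick and bars for the mean and SD (n = 4). In NPR3, C7, PTX3, VCAN and HAS2 the 4 negative lens chicks sit below the 4 positive lens chicks, and in RBP3 and SAG they sit above.

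The same 2 positive lens chicks carried RNA of skeletal muscle. Of 11 skeletal muscle markers listed, 7 were tested: the actin ACTA1, the myosins MYL1 and MYH1B, the troponins TNNC2, TNNI2 and TNNT3, and myoglobin (MB). Their summed level was 759, 63.1, 7.14 and 1762 CPM in positive lens chicks 26, 32, 33 and 36. In the negative lens chicks it was 7.97, 6.72, 10.4 and 8.47 CPM. Of the No Lens chicks, 3 were at 7.46 to 9.20 CPM and the fourth was at 170 CPM. Positive chick 33 was therefore at the level of the negative lens chicks, and the groups overlapped. MYL1, a light chain of fast muscle myosin, had 0, 1, 1 and 1 reads in the negative lens chicks and 789, 12, 0 and 2385 reads in the positive lens chicks. All 7 markers had an unadjusted p-value below 0.05 in the direction of lower with the negative lens, and none passed the threshold (lowest adjusted p-value of 0.142 by edgeR). Of the 50 genes with the smallest p-values, 17 had a deposited description that matched a text search for muscle proteins. So did 91 of the 11501 genes tested. This search of the descriptions was chosen after the data were seen, and a match alone does not make a gene specific to skeletal muscle. Genes with such a match also made up 14 of the 60 calls of DESeq2, 20 of the 64 calls of the likelihood ratio test and 26 of the 84 calls made without positive chick 33.

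**Figure D3:**
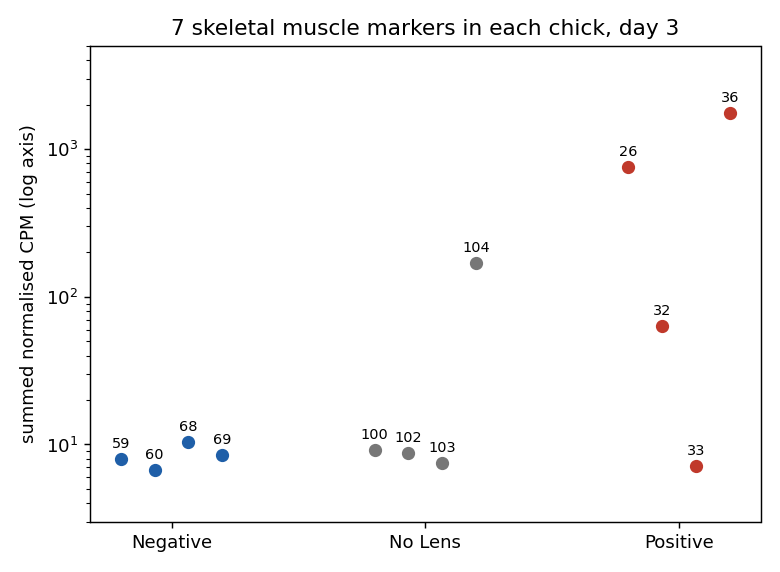
Summed normalised CPM of 7 skeletal muscle markers (vertical axis, logarithmic) in each of the 12 chicks of day 3, labelled by chick number. Positive chicks 26 (759 CPM) and 36 (1762 CPM) are highest, while positive chick 33 (7.14 CPM) sits among the negative lens chicks (6.72 to 10.4 CPM).

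The called genes were therefore also fitted in ways that take the muscle RNA into account, added after the data were seen. Without positive chicks 26 and 36, NPR3 alone was called, at a log2 fold change of -1.56 and an adjusted p-value of 0.0320 by edgeR. C7 was then at -1.57 (adjusted p-value of 0.124), PTX3 at -2.80 (0.252) and VCAN at -1.23 (0.404), with 2 positive lens chicks left in the fit. With the summed muscle level of each chick as a term in the model, no gene was called: NPR3 was at -1.66 (adjusted p-value of 0.0574), C7 at -1.57 (0.0574), PTX3 at -2.82 (0.0892) and VCAN at -1.28 (0.515). Without positive chicks 26 and 36, HAS2 was at -1.43, MASP1 at -1.50 and ADAMTS1 at -0.39. That fit did not remove the muscle difference. The median log2 fold change of the skeletal muscle markers was still -2.19, with positive chick 32 (63.1 CPM) kept. With the muscle level as a term the median was 0.27. No negative lens chick was above 10.4 CPM, so this term cannot be fully separated from the lens. On days 1 and 2 the summed level of the same markers was 5.55 to 81.1 CPM in all lens chicks, normalised apart from day 3 and without the filter on low counts.

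Of all genes tested, 441 (3.83%) had no overlap between the 4 negative and the 4 positive lens chicks, of which 217 were lower and 224 higher with the negative lens. The 16 of them with the smallest p-values after the 4 called genes had adjusted p-values from 0.0665 to 0.142 by edgeR, so none passed the threshold, and all 16 passed it by DESeq2. Those lower with the negative lens included COL6A3, a chain of collagen VI, at 30.02, 27.5, 32.4 and 23.3 CPM against 63.4, 53.8, 36.7 and 67.8 CPM, a log2 fold change of -1.0 ± 0.21 (SE) that was -0.64 without positive chicks 26 and 36. ENSGALG00000023973, described in the deposited table as the alpha-1 chain of collagen I, had a log2 fold change of -1.34 that was -1.25 without positive chicks 26 and 36. COCH, the matrix protein cochlin, was at 149, 129, 118 and 117 CPM against 345, 191, 166 and 217 CPM, a log2 fold change of -0.85 that was -0.46 without positive chicks 26 and 36. F13A1, the transglutaminase that cross-links fibrin, had a log2 fold change of -1.09, and the uncharacterized ENSGALG00000001629 had one of -1.08. They were at -0.97 and -0.80 without positive chicks 26 and 36. NRAP, an anchoring protein of striated muscle, rested on 0 to 3 reads in each negative lens chick and on 338 reads in positive chick 36, and follows the muscle markers. Positive chicks 26, 32 and 33 had 64, 3 and 2 reads. Its lack of overlap rests on 0.386 CPM in positive chick 33 against 0.372 CPM (1 read) in negative chick 68.

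ID2, a transcriptional regulator that BMP signalling induces, was at 75.3, 81.7, 103.4 and 80.4 CPM with the negative lens. With the positive lens it was at 115, 117, 115 and 124 CPM, and chick 33 did not differ from the other three. Its log2 fold change was -0.48 ± 0.10 (SE), and -0.45 without positive chicks 26 and 36. GCG, which encodes glucagon, was at 26.5, 30.6, 33.9 and 26.6 CPM with the negative lens and at 43.4, 41.8, 40.2 and 46.5 CPM with the positive lens. The No Lens chicks, at 40.7, 50.04, 49.97 and 40.4 CPM, lay with the positive lens chicks. The log2 fold change of GCG was -0.57 ± 0.12 (SE), with an adjusted p-value of 0.142 by edgeR and of 0.0145 by DESeq2. It was -0.48 without positive chicks 26 and 36. LY86, a secreted protein of B cells and myeloid cells, was at 3.05, 8.56, 8.19 and 6.75 CPM against 22.8, 9.96, 13.3 and 19.6 CPM, a log2 fold change of -1.35 that was -0.84 without positive chicks 26 and 36.

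The other 4 of the 16 genes lay in the opposite direction, higher with the negative lens. RBP3, which carries retinoids between photoreceptors and pigment epithelium, was at 722, 841, 660 and 670 CPM with the negative lens and at 564, 416, 580 and 484 CPM with the positive lens. Its log2 fold change was 0.50 ± 0.10 (SE), with an adjusted p-value of 0.142 by edgeR and of 0.00304 by DESeq2. MYOM3, myomesin 3, is named for its place in the M-band of striated muscle but went against the muscle markers. Its level was 24.6, 23.2, 19.7 and 20.5 CPM with the negative lens and 9.10, 4.65, 15.8 and 11.9 CPM with the positive lens, a log2 fold change of 0.99. TMEM56, a transmembrane protein, had a log2 fold change of 0.62 and the uncharacterized ENSGALG00000027884 one of 0.53.

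The following genes were taken from those the study names for 3 days of either lens or for both signs of defocus. The study drew them from this same series, so they are not an independent set. BMP2 was at 6.80, 9.17, 5.21 and 10.3 CPM with the negative lens and at 21.0, 7.31, 11.4 and 13.9 CPM with the positive lens at day 3. The groups overlapped in positive chick 32, and the log2 fold change of -0.78 ± 0.30 (SE) did not pass the threshold (adjusted p-value of 0.641 by edgeR) and was -0.26 without positive chicks 26 and 36. WNT9A, a Wnt ligand, was at 8.91, 8.68, 6.70 and 3.21 CPM against 4.14, 1.33, 1.54 and 2.10 CPM. Its log2 fold change was 1.46 ± 0.38 (SE), with an adjusted p-value of 0.245 by edgeR. The No Lens chicks were at 0.919 to 1.21 CPM, below every chick of both lens groups. This separation is narrow in positive chick 32 (1.33 CPM), where a single read is worth 0.664 CPM. Neither lens group passed the threshold against No Lens (adjusted p-values of 0.0897 for negative and 0.155 for positive by edgeR). SFRP4, a secreted Wnt antagonist, had a log2 fold change of 0.53 between the lenses, and the No Lens chicks (25.5 to 63.1 CPM) were above both lens groups (7.74 to 22.3 and 4.44 to 11 CPM). SLC6A2, the noradrenaline transporter, had a log2 fold change of -0.79, VTG2, a yolk precursor, one of -0.67, GNAT1, the rod transducin, one of 0.12, and the uncharacterized ENSGALG00000014171 one of -0.68. None of these genes passed the threshold between the lenses. Against No Lens, SFRP4 was at -1.68 with the negative lens (adjusted p-value of 0.320 by edgeR) and at -2.21 with the positive lens (0.0312). ENSGALG00000014171 was at 0.39 (0.452) and 1.08 (0.0292) in the same comparisons.

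Lists of genes were described by their counts, beside those over all genes, of which 4.03% were lower and 2.55% higher at an unadjusted p-value below 0.05 and 52.2% had a log2 fold change below 0. The lists were chosen with earlier results of these data known, so their counts are not independent of these data. The list of proteoglycans, hyaluronan and matrix glycoproteins held 2 of the 4 called genes among 27 tested. Its members PTX3 and HAS2 are genes that the study names from this same series. At an unadjusted p-value below 0.05, 8 of its genes (29.6%) were lower and none was higher, and its median log2 fold change was -0.32. Beside PTX3, VCAN and HAS2, these were periostin (OSF-2 in the table, -2.72), OGN (-1.20), PRELP (-0.59), DCN (-0.51) and FN1 (-0.38), which encode matricellular protein, small leucine-rich proteoglycans and fibronectin. Periostin was at 124 and 96.3 CPM in positive chicks 26 and 36 but at 19.9 and 20.3 CPM in the other two, against 7.27 to 21.6 CPM with the negative lens, so it overlapped. Of 34 collagens and laminins, none was called, 9 (26.5%) were lower and none was higher at an unadjusted p-value below 0.05, and the median was -0.21. They included all 3 collagen VI chains tested: COL6A3 (-1.0), COL6A1 (-0.44) and COL6A2 (-0.59). Without positive chicks 26 and 36 COL6A3 was at -0.64, COL6A1 at -0.08 and periostin at -0.91, and with the muscle level as a term they were at -0.55, -0.07 and -0.94. Of 18 matrix proteases and inhibitors, 3 were lower and none higher, with a median of -0.14. Without positive chicks 26 and 36 the medians of these 3 lists were -0.18, -0.04 and -0.03. With the muscle level as a term these medians were -0.29, -0.07 and -0.14.

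Of 26 genes of BMP and TGF-beta signalling, none was called, and 23 (88.5%) had a log2 fold change below 0. The median was -0.23. It was -0.13 without positive chicks 26 and 36 and -0.24 with the muscle level as a term. The 5 at an unadjusted p-value below 0.05 were ID2, the co-receptor TGFBR3 (-0.42), the ligands BMP2 and BMP4 (-1.08), and the matricellular protein CTGF (-0.40). The genes ID1 and ID3, which BMP signalling also induces, were at -0.52 and -0.69 and had unadjusted p-values above 0.1. Of 23 Wnt signalling genes, FZD1 (-0.43) was lower and WNT9A higher at an unadjusted p-value below 0.05, and the median was -0.11.

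All 14 genes of monocytes, macrophages and microglia had a log2 fold change below 0, with a median of -0.47, and none was called. The median was -0.22 both without positive chicks 26 and 36 and with the muscle level as a term. LY86, the complement subunits C1QB (-1.30) and C1QA (-1.15), and MPEG1 (-0.71), a pore-forming protein of macrophages, were lower at an unadjusted p-value below 0.05. C1QB was at 2.35, 3.67, 3.72 and 1.5 CPM against 7.94, 7.31, 5.60 and 6.19 CPM, with no overlap. Its log2 fold change was -1.19 without positive chicks 26 and 36. CSF1R, the growth factor receptor that marks these cells, was at 55.8 to 69 CPM against 61.1 to 71.7 CPM, a log2 fold change of -0.05. The T lymphocyte and immunodeficiency list had a median of -0.35 over 12 genes, with PTPRC, the leukocyte antigen CD45, lower at an unadjusted p-value below 0.05 (-0.62). The median of this list was -0.17 without positive chicks 26 and 36 and -0.19 with the muscle level as a term. The 15 interferon response genes had a median of 0.14 and none at an unadjusted p-value below 0.05.

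Phototransduction was the list with the highest median, 0.20 over 23 genes, with no gene called. At an unadjusted p-value below 0.05, 6 of its genes (26.1%) were higher with the negative lens and none was lower: SAG, the rod arrestin (0.35), the guanylate cyclase GUCY2F (0.46), its activator GUCA1B (0.27), the exchangers SLC24A1 (0.30) and SLC24A2 (0.25), and GNB1 (0.18). SAG was at 520, 467, 471 and 471 CPM with the negative lens and at 421, 417, 375 and 300 CPM with the positive lens, with no overlap. The cone transducin GNAT2 was at -0.03. The median became 0.04 with the muscle level as a term, and it was 0.18 without positive chicks 26 and 36.

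In the remaining lists no gene was called. Of 33 cell division and DNA replication genes, 5 were lower and none higher at an unadjusted p-value below 0.05, among them TOP2A (-0.67) and CDK1 (-0.63). The median of -0.24 became -0.01 without positive chicks 26 and 36 and -0.10 with the muscle level as a term. The other medians were -0.13 for insulin-like growth factor and retinoic acid genes, -0.10 for B lymphocyte genes, -0.09 for cytokines and chemokines, -0.08 for neuropeptides, -0.04 each for cytosolic ribosomal proteins, apoptosis and immediate early genes, -0.03 for the respiratory chain, 0.00 for the circadian clock, 0.07 for chaperones, 0.09 each for dopamine and melatonin and for methionine and cysteine metabolism, and 0.17 for crystallins. Each of these lists had at most 4 genes in either direction at an unadjusted p-value below 0.05. The B lymphocyte list held IGBP1 (0.32), a different gene that was matched in the place of CD79A. Among the B lymphocyte markers, IGJ was at -3.07, with means of 1.40 CPM with the negative lens and 9.90 CPM with the positive lens. Its groups overlapped, and it did not pass the threshold (unadjusted p-value of 0.000372, adjusted p-value of 0.142 by edgeR).

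**Figure D4:**
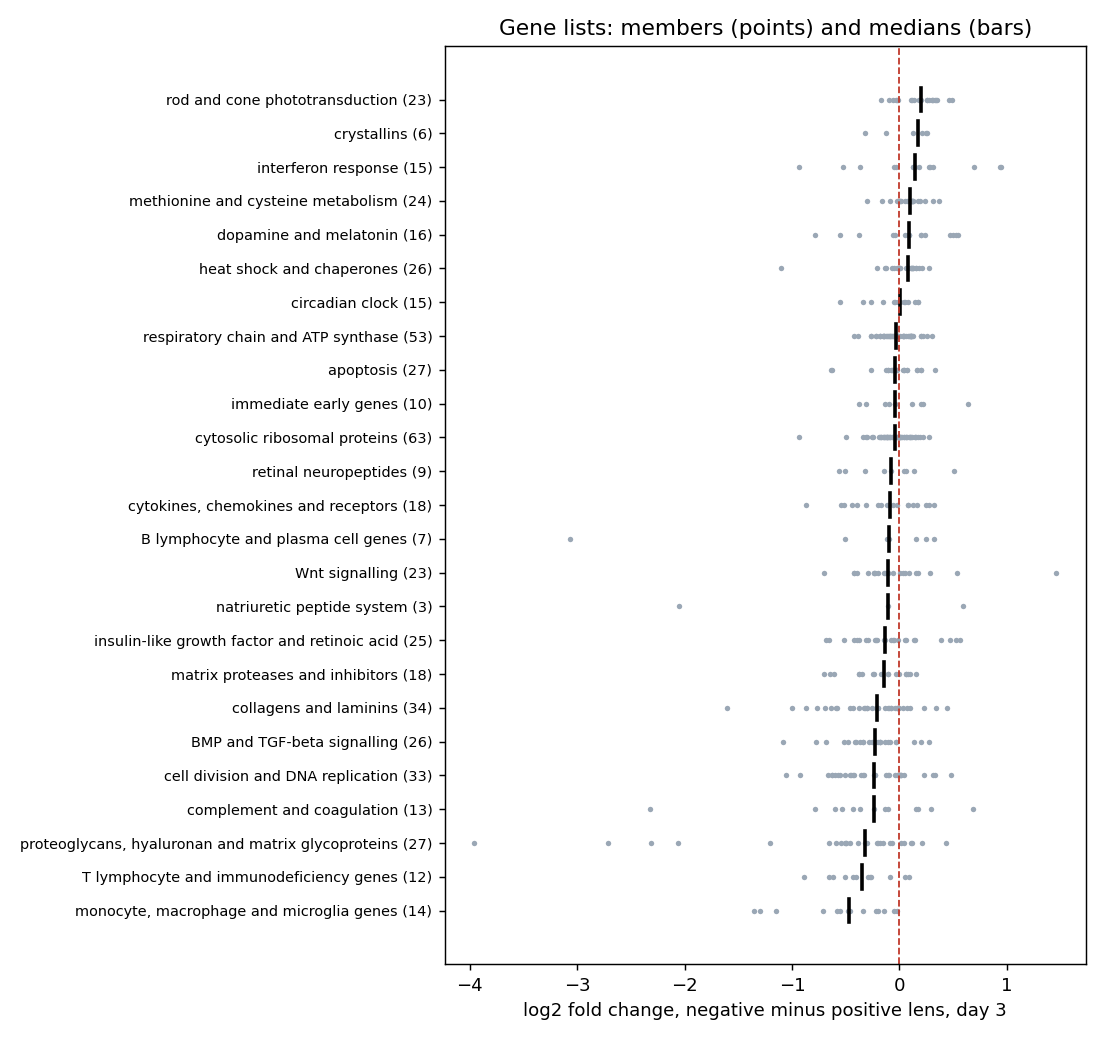
Log2 fold changes (negative minus positive lens, day 3) of the tested members of 25 gene lists as points, with the median of each list as a bar and the number of members tested in brackets. The dashed line is the median of all genes (-0.01), and the medians run from -0.47 for monocyte, macrophage and microglia genes to 0.20 for phototransduction.

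Among 21 lists of cell type markers, none held a called gene. Over the 16 lists other than skeletal muscle with at least 4 genes tested, medians ran from -0.52 to 0.16. The lowest was that of fibroblasts, whose summed level was 532 to 751 CPM with the negative lens and 692 to 1292 CPM with the positive lens. Of its 6 genes, PDGFRA (-0.53), COL1A2 (-0.70) and DCN were lower at an unadjusted p-value below 0.05. Without positive chicks 26 and 36 the median was -0.17, PDGFRA was at -0.25 and COL1A2 at -0.23. With the muscle level as a term they were at -0.25, -0.29 and -0.37. The highest was that of rods, at 2096 to 2681 CPM with the negative lens and 1730 to 2365 CPM with the positive lens. The rod median of 0.16 was 0.05 without positive chicks 26 and 36 and 0.01 with the muscle level as a term. Mueller glia markers had a median of 0.14 and pigment epithelium markers one of 0.02. The part of fibroblast and muscle RNA in the matrix genes above was not tested beyond these fits.

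The positions of the lens groups relative to No Lens differed between genes. These comparisons share the No Lens chicks and are given side by side. With edgeR's quasi-likelihood test no gene was called between the negative lens and No Lens, against 7 by DESeq2. Between the positive lens and No Lens 101 were called (0.878%), against 533 by DESeq2. Of the 11501 genes tested, 1181 had an unadjusted p-value below 0.05 between the negative lens and No Lens. Between the positive lens and No Lens 2027 did, and between the 2 lenses 757 did. The count of 101 changed with single chicks. It was 0 without any 1 of 3 No Lens chicks or without positive chick 36, 18 without the other No Lens chick, 5 without negative chick 68, 9 without positive chick 26, 24 without positive chick 33, 169 without negative chick 60 and 779 without negative chick 69. NPR3 was at -1.32 from No Lens with the negative lens and at 0.74 with the positive lens, and neither passed the threshold (adjusted p-values of 0.172 and 0.0762). VCAN was at -0.39 (adjusted p-value of 0.700) and 1.66 (0.0312), C7 at -1.07 (0.413) and 1.25 (0.0452), HAS2 at -0.50 (0.734) and 1.82 (0.0445), and PTX3 at -2.21 (0.413) and 1.75 (0.0603). The calls of VCAN, C7, HAS2, SFRP4 and ENSGALG00000014171 with the positive lens were thus lost without positive chick 36 and without any 1 of 3 No Lens chicks. GCG was at -0.63 (0.195) and -0.06 (0.825). The difference between the 2 distances from No Lens was not tested.

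At days 1 and 2 the same lens comparison was made on other chicks, 4 with each lens and day. With edgeR's quasi-likelihood test, 3 genes (0.0262%) were called at day 1 and 6 (0.0526%) at day 2, all lower with the negative lens. Of the 4 genes called at day 3, NPR3 and PTX3 were also called at day 2 and none at day 1. The log2 fold changes of NPR3 were -1.45 ± 0.23 (SE) at day 1, with an adjusted p-value of 0.0964, and -1.73 ± 0.24 at day 2 (0.0230). Its levels did not overlap between lenses on either day, at 8.83 to 11.8 CPM against 19.97 to 42.5 CPM on day 1 and 6.54 to 11.3 CPM against 20.05 to 37.8 CPM on day 2. PTX3 was at -4.25 ± 0.72 at day 1 (adjusted p-value of 0.132) and at -4.81 ± 0.53 at day 2 (0.00676). HAS2, which did not pass the threshold at day 3, was called on both earlier days, at -2.0 ± 0.25 (0.0175) and -2.07 ± 0.24 (0.00676), against -2.31 at day 3. Its negative lens chicks were at 3.41 to 4.85 CPM and its positive lens chicks at 12.5 to 28.1 CPM over days 1 and 2.

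The day 3 values of C7, VCAN, BMP2 and RBP3 are set beside those of the earlier days. C7 was at -0.53 ± 0.25 on day 1, when its groups overlapped, and at -1.94 ± 0.36 on day 2. VCAN was at -1.21 ± 0.33 and -0.91 ± 0.24. BMP2 was called on both earlier days, at -2.58 ± 0.24 on day 1 (adjusted p-value of 0.00169) and -1.88 ± 0.23 on day 2 (0.0102), against -0.78 at day 3. RBP3 was at -0.17 ± 0.16 and -0.00 ± 0.18, against 0.50 at day 3. When the lens difference at day 3 was tested against that at day 1 or day 2 in 1 model of the 24 lens chicks, no gene passed the threshold in edgeR's quasi-likelihood test. Against day 1, 429 genes (3.70%) had an unadjusted p-value below 0.05, and against day 2, 397 (3.42%) did, while DESeq2 called 2 and 6. Both of the former and 4 of the latter matched the search of the descriptions for muscle proteins. BMP2 had the smallest p-value against day 1 (0.000233, adjusted p-value of 0.926), with a difference of 1.81 on the log2 scale, and C7 had an unadjusted p-value of 0.00218 there.

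All 6 genes called at day 2 and all 3 called at day 1 had a log2 fold change below 0 at day 3, where 52.2% of all genes did. HAS2 and BMP2 are in both sets. Beside those above, the called genes were CTGF (-0.40 at day 3), ENSGALG00000001629 and RGS16, a regulator of G-protein signalling, which was called at day 1 (-1.24) and was at -0.83 at day 3. Over the whole table the days did not run together. Across 11338 genes Pearson's r between the log2 fold changes of day 3 and day 2 was -0.01, and across 11367 genes it was -0.01 between day 3 and day 1. Spearman's rho was weakly negative, at -0.08 with day 2 and -0.10 with day 1. The sign was the same in 48.2% and 47.0% of the genes. Genes are not independent replicates, so these are descriptions. Of the 426 genes that were lower at an unadjusted p-value below 0.05 at day 3 and were tested at day 2, 58.2% had a log2 fold change below 0 at day 2, where 48.5% of all genes did. Of the 289 that were higher, 48.8% were above 0 at day 2, where 51.5% of all genes were. At day 1, 200 of the 435 lower genes were below 0, where 48.4% of all genes were, and 147 of the 291 higher genes (50.5%) were above 0, where 51.6% of all genes were.

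**Figure D5:**
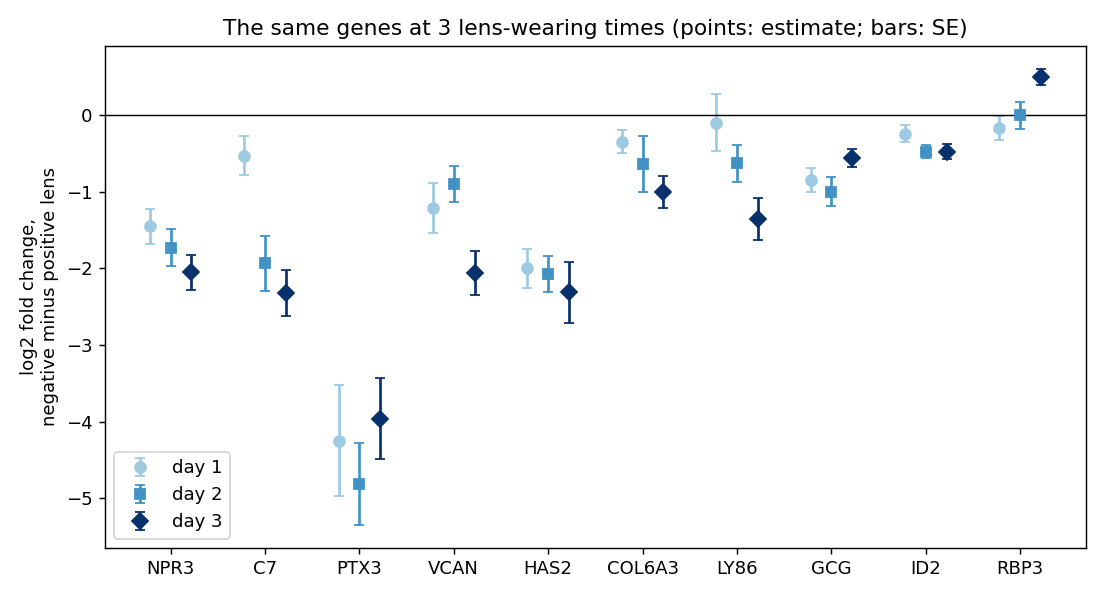
Log2 fold change (negative minus positive lens, vertical axis) of 10 genes at day 1, day 2 and day 3 of lens wear, from separate chicks on each day, with the estimate as a point and the SE as a bar. NPR3, PTX3, VCAN and HAS2 lie below 0 on all 3 days, and RBP3 lies above 0 by more than its SE at day 3.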

How the data were processed

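The authors trimmed single-end reads from stranded, poly(A)-selected libraries with CutAdapt and Trimmomatic, aligned them to GalGal4 with Tophat2 and Bowtie2, and deposited raw counts of uniquely mapped reads per gene from HTSeq. Whether counting used the strand is not given in the sources used here. Genes with near-identical copies can be undercounted. Genome coordinates and sequences were not used here.

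Counts of the 12 chicks of day 3 were filtered (filterByExpr, minimum count 10, minimum total 15), normalised by TMM and tested with edgeR 4.0.16 in R 4.3.3 by the quasi-likelihood test, with 1 mean per group and Benjamini-Hochberg adjustment over all genes (threshold 0.05). Days 1 and 2 were fitted the same way on their own chicks. Their CPM values were normalised apart from those of day 3 and are not directly comparable with them. The skeletal muscle sums of days 1 and 2 were taken without the filter on low counts. Interactions used the 24 lens chicks. Each SE was calculated back from the log2 fold change and the statistic of the quasi-likelihood test. Single genes were also compared by exact two-sided permutation tests. Fits were tested on simulated data.

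The genes named are all called genes, then the smallest p-values among genes without overlap up to 20 in all, 11 genes fixed by name, up to 4 of each list, and genes called on other days. Those 11 are genes that the study names from this same series. The 25 pathway and 21 marker lists and the members were chosen with earlier results of these data known. Of the genes in the table, 1426 had no symbol and are given by Ensembl ID. RGS16 and further list members were named after their values were seen. Alternatives were DESeq2 1.42.0 with and without a beta prior, the likelihood ratio test, limma-voom (limma 3.58.1), RLE factors, no filter, other sets of chicks, a surrogate variable (sva 3.50.0), robust dispersions, and leaving out single chicks. Pairs of chicks within the lens groups of day 3 were not repeats of 1 library (chi-square of their counts 3.26 to 13.6 per gene).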

Additional observations from a re-analysis of the deposited data

Results flagged for a closer look

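Gaps between 1 chick and the rest of its group were looked for in 27 named genes and 21 marker lists, in 144 groups of 4 chicks of day 3. In 7 groups (4.86%) the gap exceeded the critical value of Dixon's test, where chance gives about 5%. Skeletal muscle markers summed to 170 CPM in 1 No Lens chick and to 7.46 to 9.20 CPM in the other No Lens chicks, and NRAP was at 3.40 CPM in the same chick, against 0.184 to 0.202 CPM. The values 759 and 1762 CPM in positive chicks 26 and 36 passed no such limit because their group is spread out. TMEM56 was at 19.0 CPM in positive chick 26, against 13.3 to 13.9 CPM in the other positive lens chicks. ENSGALG00000001629 was at 22.8 CPM in negative chick 59 (others 16.6 to 17.6 CPM), and SFRP4 was at 22.3 CPM in negative chick 68 (others 7.74 to 9.78 CPM). Melanocyte and pigment markers summed to 665 CPM in negative chick 69, against 829 to 834 CPM in the other negative lens chicks. Horizontal cell markers summed to 604 CPM in another No Lens chick, against 418 to 427 CPM.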

How the results depend on the processing

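Between the lenses at day 3, 4 genes were called, and RLE factors, no filter on low counts and 1 surrogate variable gave the same 4 genes. The likelihood ratio test called 64, DESeq2 60 and DESeq2 with a beta prior 38, the fit of all 34 chicks 63 (1 higher and 62 lower), and robust dispersions 2. Without positive chicks 26 and 36 there was 1, and with the muscle level as a term 0. Leaving out 1 chick gave 1 to 84. Against No Lens, the negative lens had 0 calls, 10 by the likelihood ratio test, 7 by DESeq2 with or without the beta prior, 3 with all 34 chicks, and 0 to 355 without 1 chick (355 without negative chick 69). The positive lens had 101 calls, 692 by the likelihood ratio test, 533 by DESeq2, 532 with a beta prior, 662 by limma-voom, 654 with only the 2 groups, 6 with all 34 chicks, 63 with robust dispersions, and 0 to 779 without 1 chick. For day 1, 3 calls became 24 by the likelihood ratio test, 20 by DESeq2, 23 with a beta prior, 5 by limma-voom, and 1 to 17 without 1 chick. For day 2, 6 calls became 15 by the likelihood ratio test, 12 by DESeq2 with or without the beta prior, 15 by limma-voom, and 0 to 7 without 1 chick. The test of day 3 against day 1 gave 0 calls, 2 by the likelihood ratio test, 2 by DESeq2, and 0 to 6 without 1 chick, and that against day 2 gave 0, 8, 6, and 0 to 1. The causes were not tested.

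For 35 genes, the log2 fold change was recomputed with RLE factors, no filter, DESeq2, only the 2 groups, both treatments of the muscle RNA, and without single lens chicks. None of these 486 values changed sign. In 14 of them a call was lost and in 32 one was gained. Only the 4 called genes could lose one, so the losses are not a share of all these values. Over the 6 other settings, NPR3 stayed past the threshold in 5, C7 and PTX3 in 4 each and VCAN in 3. Without single lens chicks, the call was lost 1 time for C7, 3 times for PTX3, 2 times for VCAN and never for NPR3. Of 644 list medians, 12 moved by more than the spread between chicks. No paired analysis was possible because the labels give each chick its own number and tie no chick of one group to one of another. With 4 chicks a group and the lowest total at 1592763 counts, differences of low genes are the least certain.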
